A study of Mus musculus with 6 samples.

Results

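Ppara, Cpt1a and Acaa2 are transcripts of fatty acid oxidation that a mouse circular RNA (circRNA) array carries among its 50 probes for linear transcripts. Each has 1 probe, found by the transcript accession in the scanner files: NM_011144 for Ppara, NM_013495 for Cpt1a and NM_177470 for Acaa2. They are 3 of the 14330 probes on the array that are not controls, and each is printed as 10 spots, so that every array measured each transcript 10 times. Small intestine of 8-week-old C57BL/6 mice was compared between a sham group (arrays 1, 2 and 3) and a group after intestinal ischaemia/reperfusion, I/R (arrays 6, 7 and 9, labelled 4 h). Ischaemia/reperfusion stops the blood flow to the gut and then lets it return. In both groups the tissue had been immersed in paraformaldehyde, and the RNA had been treated with RNase R, an enzyme that degrades linear RNA and spares circles, so the values are of linear RNA left after that digestion. Whether each array stands for an animal of its own is not stated in the labels. A p-value here therefore sets a difference between the groups against the spread of these samples, which may be technical.

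Fatty acid oxidation is the mitochondrial pathway that cuts fatty acids into acetyl-CoA for energy. Ppara encodes PPAR alpha, a nuclear receptor that is activated by fatty acids and switches on genes of the pathway, binding DNA together with RXR. Cpt1a encodes the enzyme of the outer mitochondrial membrane that couples long-chain fatty acids to carnitine, the gate for their entry. Acaa2 encodes a mitochondrial thiolase, which carries out the last step of each round of the cycle. In the small intestine, the absorptive enterocytes meet dietary fat directly and express this pathway. A gene name was found for 44 of the 50 linear-transcript probes. Of 45 genes fixed as a list of fatty acid oxidation and PPAR alpha targets, only these 3 had such a named probe. Among the markers of intestinal and neighbouring cell types, 1 of 46 had such a probe, the enteroendocrine granule protein Chgb, so the labelled tissue could not be checked against enterocyte markers.

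PPAR alpha with RXR recognises the motif AGGTCA as a direct repeat with a single base between the copies. The 250 bases before the start of Ppara (chr15:85735526-85735775) and of Cpt1a (chr19:3323051-3323300), both on the plus strand, are shown. Cpt1a is a textbook target of the receptor. Acaa2 is not shown, as sequences were taken for transcripts with an entry in the RefSeq promoter set. In their levels over the arrays, Ppara and Cpt1a each lay closer to the glycolytic isomerase Gpi1 than to each other, as described further on. The sequences come from RefSeq on GRCm38.p6, whereas the array was designed on mm9, and capitals mark the motif AGGTCA on either strand.
Ppara: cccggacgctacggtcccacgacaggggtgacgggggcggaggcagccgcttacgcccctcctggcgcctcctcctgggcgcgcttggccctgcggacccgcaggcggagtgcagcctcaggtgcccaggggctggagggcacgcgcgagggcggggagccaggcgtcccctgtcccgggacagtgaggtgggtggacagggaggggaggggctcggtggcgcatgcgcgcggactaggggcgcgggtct
Cpt1a: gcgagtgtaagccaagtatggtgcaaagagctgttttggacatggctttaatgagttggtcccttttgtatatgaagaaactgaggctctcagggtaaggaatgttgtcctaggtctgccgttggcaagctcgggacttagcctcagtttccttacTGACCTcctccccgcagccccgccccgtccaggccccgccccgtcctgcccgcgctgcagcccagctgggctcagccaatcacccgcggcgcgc
The Cpt1a stretch held the motif 1 time, read as TGACCT, its reverse complement, which ended 88 bases before the start. The Ppara stretch held none, and its GC content was 76.4% against 59.6% for Cpt1a. Over the same window, 14.0% of 32851 promoters held the motif and 0.033% held the full repeat, which neither of these held. A match describes letters only, and no binding was measured here.

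None of the 3 transcripts differed between sham and I/R beyond the spread of the arrays. Their means were higher after I/R, by 1.26-fold for Ppara, 1.21-fold for Cpt1a and 1.53-fold for Acaa2, and each interval included no change. The widest spread lay within the sham group. Sham 3 was the highest sham array for all 3 transcripts, as it was for 36.1% of the 36 linear transcripts well above background on at least 3 arrays, and for Ppara and Acaa2 it was above every I/R array as well. Levels are log2 processed signal minus the 75th percentile of the array's non-control spots, and a level below 0 lies under that percentile. Values of single arrays are given in the order sham 1, 2, 3 and then I/R 6, 7, 9. The percentile itself was 57.6, 82.9 and 70.3 for sham against 79.5, 108 and 85.4 for I/R, so the I/R arrays were on average brighter.

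**Figure D1:**
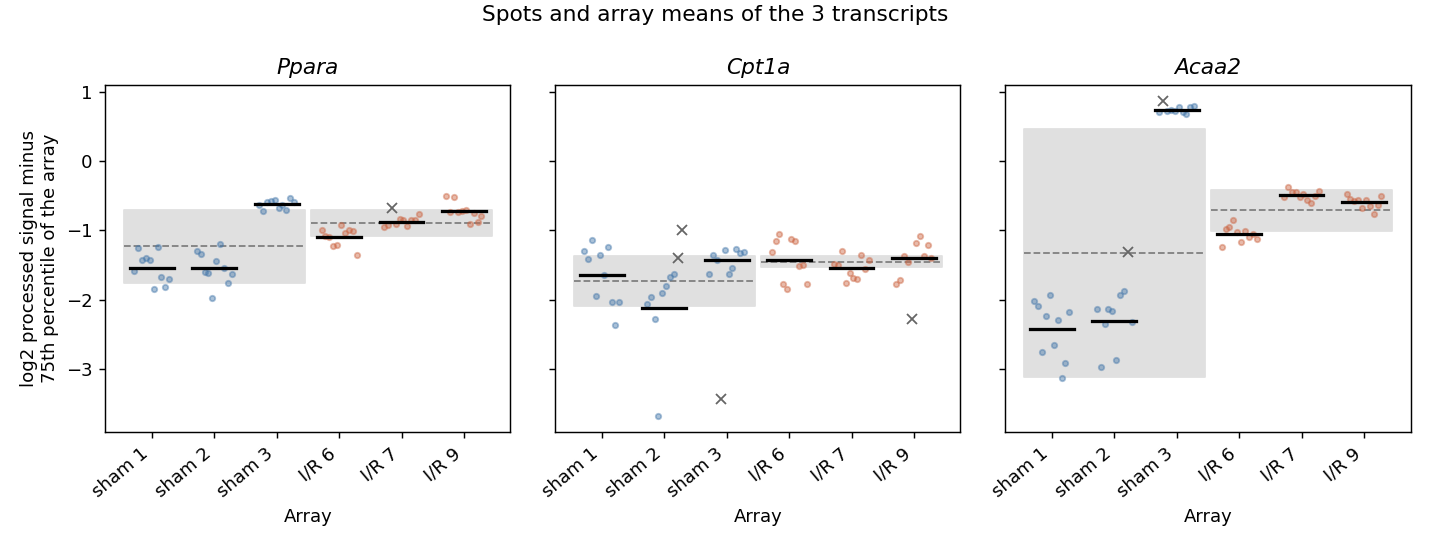
Levels of Ppara, Cpt1a and Acaa2 on each array, as log2 processed signal minus the array's 75th percentile (vertical axis) for 3 sham (blue) and 3 I/R (orange) arrays. Dots are spots, crosses are spots that the scanner software marked as outliers and that were left out, black bars are array means, dashed lines are group means and grey bands are ± 1 SD (n = 3). Sham 3 is the highest sham array in every panel and stands at 0.73 for Acaa2, against -2.42 and -2.31 on sham 1 and 2.

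Ppara, the receptor, was at -1.54, -1.54 and -0.62 for sham against -1.10, -0.88 and -0.73 for I/R. All I/R arrays lay above sham 1 and 2, and all lay below sham 3, so the groups overlapped. The sham mean was -1.23 ± 0.53 and the I/R mean -0.90 ± 0.19 (SD, n = 3). The difference was 0.33 (SE 0.32, 95% interval -0.42 to 1.09), with an adjusted p of 0.766 in limma over 9527 circRNA and linear-transcript probes. In that fit limma called 0 probes (0%), and 806 (8.46%) had an unadjusted p under 0.05, 5.49% with the higher level in I/R. The 3 transcripts were not among those 806. Probes whose I/R arrays all lay above all sham arrays made up 8.83% of that fit and 13.9% of the 36 linear transcripts, and none of the 3 was such a probe. Without sham 3 the Ppara difference was 0.64 (adjusted p = 0.364 in limma), and without sham 1 or sham 2 it was 0.18 each.

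Ppara was well above background on all 6 arrays, by the scanner's flag on at least 50% of the spots used. On sham 2 the flag was on 7 of 10 spots. The level of -1.54 there lay just above that array's lowest signal well above background, -1.62 on this scale. Its 10 spots agreed closely. Their SD on the log2 scale was 0.22 and 0.23 on sham 1 and 2 and between 0.06 and 0.13 on the other 4 arrays. The mean over spots had a standard error of at most 0.07, which covers the spots of 1 array and not the labelling or hybridisation of another.

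Cpt1a, the gate enzyme, was at -1.65, -2.13 and -1.42 for sham against -1.42, -1.54 and -1.40 for I/R. The I/R arrays lay close together, near the top of the sham range, and only I/R 9 was above every sham array. The means were -1.73 ± 0.36 and -1.46 ± 0.08 (SD, n = 3), a difference of 0.28 (SE 0.27, 95% interval -0.35 to 0.91, adjusted p = 0.766 in limma). Without sham 2, the lowest array, the difference was 0.08. Before any scaling Cpt1a was the one transcript of the 3 whose groups did not overlap, with signals of 18.4, 19.0 and 26.2 in sham against 29.6, 37.1 and 32.4 in I/R. Of the 36 linear transcripts, 41.7% were likewise higher on every I/R array without scaling, and of all 9527 probes 26.9% were.

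The Cpt1a probe was the noisiest of the 3 on its spots. Their SD ran from 0.14 to 0.66 on the log2 scale and was highest on sham 2. There 2 of 10 spots were well above background, and both were outliers that were left out, so 0 of the 8 spots behind the sham 2 level of -2.13 were well above background. With sham 2 set instead to that array's lowest signal well above background, -1.62 on this scale, the sham mean was -1.56 ± 0.12 (SD, n = 3) and the difference 0.11 (SE 0.23, adjusted p = 0.903 in limma), a setting chosen after seeing the data. The spot in printed column 13 had a signal of 6.47 on sham 2 and 6.49 on sham 3, and of 14.9, 23.1, 31.8 and 31.1 on sham 1, I/R 6, I/R 7 and I/R 9. The scanner software marked it as an outlier on sham 3 and not on sham 2, where it marked 2 bright spots instead. With that spot left out everywhere, a choice made after seeing the data, sham 2 moved from -2.13 to -1.90 and the difference from 0.28 to 0.22 (SE 0.24, adjusted p = 0.799 in limma). With the median over spots in place of the mean the difference was 0.17.

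The Cpt1a spots also differed by side. By the date in the file headers the arrays form 2 scan sets, sham 1 and I/R 6 in set 1 and the other 4 in set 2. On both arrays of set 1 the 5 Cpt1a spots printed on the right (columns 46 to 64) were brighter than the 5 on the left (columns 1 to 41), by 0.60 on sham 1 and 0.53 on I/R 6 on the log2 scale. On set 2 the same contrast was -0.04, 0.21, 0.01 and 0.12 for sham 2, sham 3, I/R 7 and I/R 9, with outlier spots kept. The other probes did not part by scan set in this way. For Ppara the contrast was -0.19 and -0.04 in set 1 and -0.06 to 0.03 in set 2, and for Acaa2 it was 0.33 and 0.04 in set 1 and -0.35 to 0.12 in set 2. Since each scan set holds both groups, I/R minus sham could be read within each. It was 0.23 for Cpt1a in set 1 and 0.30 in set 2, and it was 0.27 from the left spots and 0.23 from the right.

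**Figure D2:**
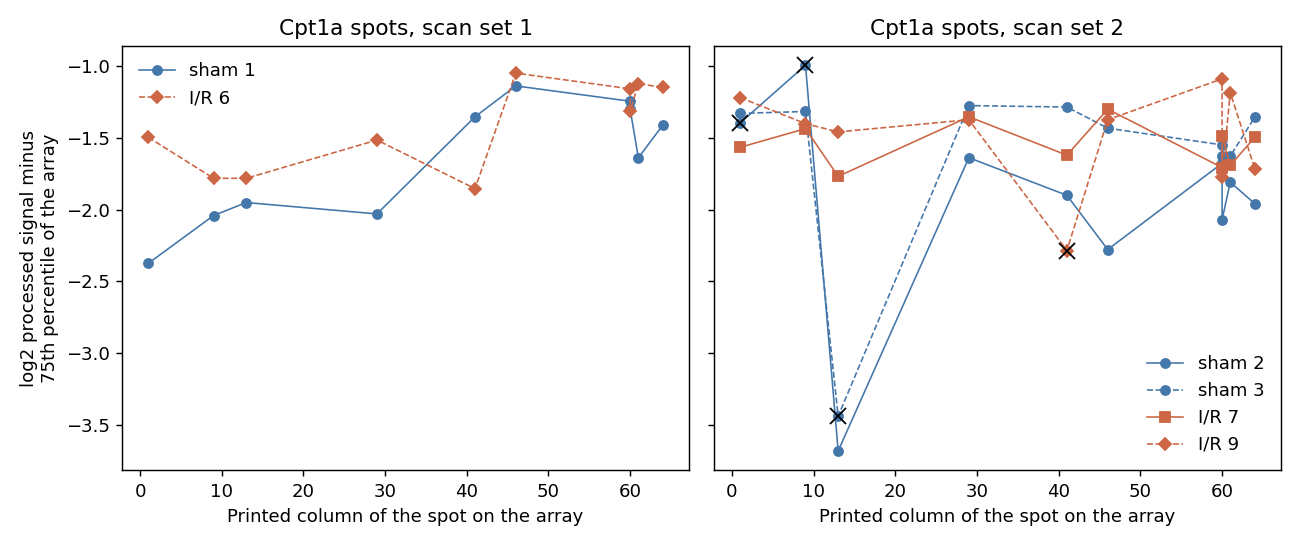
The 10 Cpt1a spots of each array by printed column (horizontal axis), as log2 processed signal minus the array's 75th percentile (vertical axis), in scan set 1 (left panel) and scan set 2 (right panel). Large crosses mark outlier spots that were left out. The spot in column 13 stands at -3.68 on sham 2, where it was kept, and at -3.44 on sham 3, where it was left out.

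Acaa2, the thiolase, had the widest spread of the 3. It was at -2.42, -2.31 and 0.73 for sham against -1.05, -0.49 and -0.60 for I/R. The I/R arrays lay between the sham arrays, far above sham 1 and 2 and below sham 3. As unscaled signal, sham was at 10.7, 16.7 and 117 and I/R at 38.3, 76.9 and 56.4. The means were -1.33 ± 1.79 and -0.71 ± 0.30 (SD, n = 3). The difference of 0.62 (SE 0.80, 95% interval -1.25 to 2.48, adjusted p = 0.828 in limma) is a fold of 1.53 with an interval from 0.42 to 5.59.

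Sham 3 decided the size of the Acaa2 difference. Without it the difference was 1.65 on the log2 scale, with an adjusted p of 0.0835 in limma over all probes. With limma's array weights, which gave sham 3 the lowest weight of the 6 arrays (0.31), it was 1.33 (SE 0.50, adjusted p = 0.231). The weight of I/R 7 was 6.03, against 0.79 for I/R 6 and 0.95 for I/R 9. Sham 1 had 0.63 and sham 2 had 1.13. The weighted I/R level thus rests largely on I/R 7. A fit of the 50 linear-transcript probes alone gave an adjusted p of 0.667 with all arrays and of 0.0119 without sham 3, a setting chosen after seeing the data and the only one of those run in which one of the 3 transcripts passed the threshold of 0.05. That fit called 0 of 50 (0%) with all arrays, with 8 (16.0%) at an unadjusted p under 0.05 in limma. Without sham 3 the sham group was sham 1 and 2, at -2.42 and -2.31 with an SD of 0.08. The sham 2 level lay under that array's lowest signal well above background, -1.62. That small SD, and the p-values without sham 3, thus rest in part on a value below the limit of detection. Sham 2 was not set to that limit in the fits without sham 3. Leaving out sham 3 was 1 of 6 arrays left out in turn, and without sham 1 the difference was 0.07 and without sham 2 it was 0.13. By scan set, I/R minus sham was 1.37 in set 1, which does not hold sham 3, and 0.24 in set 2, which does.

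The high Acaa2 value on sham 3 was seen in every spot. The 10 spots had processed signals from 112 to 128 there, with an SD of 0.04 on the log2 scale over the 9 spots used. On sham 1 they ran from 6.55 to 15.1, on sham 2 from 10.5 to 33.3, on I/R 6 from 33.7 to 43.8, on I/R 7 from 71.1 to 83.1 and on I/R 9 from 50.3 to 61.1. No spot of sham 3 fell within the range of any other array. All 10 spots were well above background on sham 3 and on each I/R array, 8 were on sham 1 and 1 was on sham 2, so that Acaa2 counted as well above background on 5 arrays. The flagged spot of sham 2 was an outlier and left out, so 0 of the 9 spots behind the sham 2 level were well above background. With sham 2 set to -1.62, its lowest signal well above background, the difference was 0.39 (SE 0.74, adjusted p = 0.892 in limma).

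Close to the background, values on sham 1 and 2 carry more error than the others. The median raw signal of the Acaa2 spots was 64.25 on sham 1 and 91.75 on sham 2, where the 95th percentile of 77 negative control spots was 55 and 85.4. It was 180 on sham 3, against 71. Cpt1a on sham 2 lay at 93.5, also near the negative controls, and Ppara on sham 2 at 101. The lowest signal flagged as well above background was 26.9 on sham 2 and between 7.61 and 13.6 on the other arrays, so sham 2 had the highest limit of detection.

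**Figure D3:**
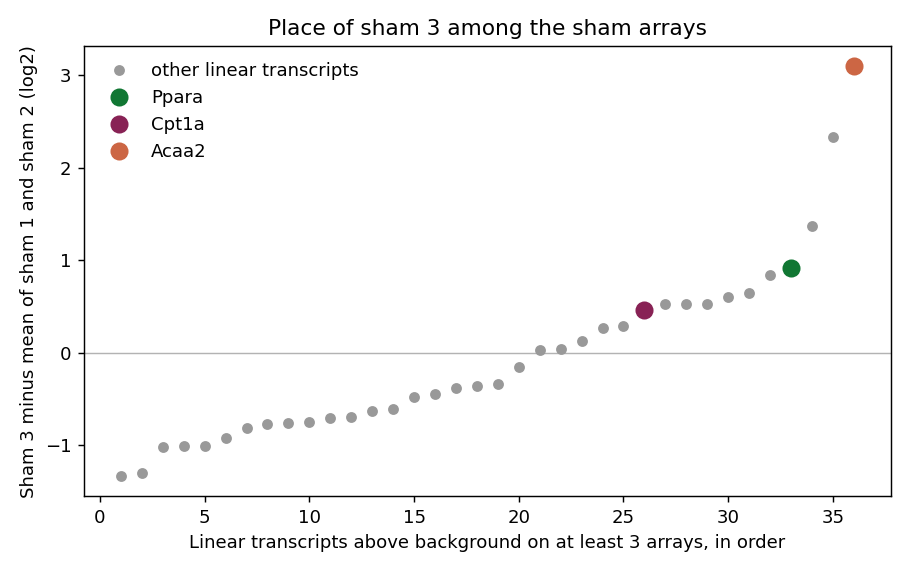
Level on sham 3 minus the mean of sham 1 and sham 2 (vertical axis, log2), for the 36 linear transcripts that passed the background filter, in rising order (horizontal axis). Acaa2 is the highest point at 3.10, Ppara stands at 0.91 and Cpt1a at 0.46, each above 0, while 20 transcripts lie below 0.

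How far sham 3 stood from the other sham arrays was compared over the linear transcripts, as a description with no test. As measured, Acaa2 lay 3.10 above the mean of sham 1 and 2, the largest such distance of the 36 transcripts, whose median was -0.35. Since sham 2 was not well above background, the distance is better read as at least 2.75, its value with sham 2 at -1.62. Of 9513 fitted probes with a value on every array, 43 (0.452%) lay as far from the other sham arrays in either direction. Ppara lay 0.91 above, rank 10 of the 36 by absolute distance, and Cpt1a 0.46, rank 26, where the median absolute distance was 0.64. With sham 2 at -1.62 the Cpt1a distance was 0.21. After Acaa2 the largest distances upward were those of Mbp, myelin basic protein, at 2.33 and Actb, the cytoskeletal beta actin, at 1.37, both named after their values were seen. Mbp was at -5.10, -3.42 and -1.93 for sham against -5.39, -2.87 and -1.57 for I/R and was well above background on 3 arrays. On sham 1 and 2 it lay under the lowest signal well above background of those arrays, -2.92 and -1.62. Its distance of 2.33 thus rests on values below the limit of detection. Actb was at -1.61, -0.94 and 0.10 for sham against -2.35, -1.53 and -0.54 for I/R. Sham 3 was the highest sham array for 13 of the 36 transcripts and the highest of all 6 arrays for 6 of them. Chgb, the enteroendocrine marker, was at -0.68, 0.34 and 0.67 for sham against -0.84, 0.12 and 0.82 for I/R. It was thus also highest on sham 3 within sham, by 0.84 over the mean of the other sham arrays, but differed by -0.08 between the groups. The part of Chgb, Mbp and Actb in the Acaa2 and Ppara levels was not tested. In a bulk sample, fewer cells of a type and less RNA per cell cannot be told apart. Neither can be told from a different amount of linear RNA left after RNase R.

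Relative to the rest of the array, the 3 differences were ordinary in size. The median over the 3 transcripts was 0.33, beside 0.29 over the 36 linear transcripts and 0.15 over all 9527 fitted probes. Of the 36, 80.6% had a higher mean in I/R, and of the 9527, 63.8% did. Ranked from the highest difference down, Acaa2 was 9, Ppara 17 and Cpt1a 21 of the 36. Another scaling moved this common shift and the transcripts with it. Without scaling the median of the 36 was 0.67 and the 3 transcripts differed by 0.71, 0.65 and 0.99 (Ppara, Cpt1a and Acaa2). With the percentile restricted to the probes above background on every array, that median was 0.10 and the transcripts differed by 0.14, 0.09 and 0.43.

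**Figure D4:**
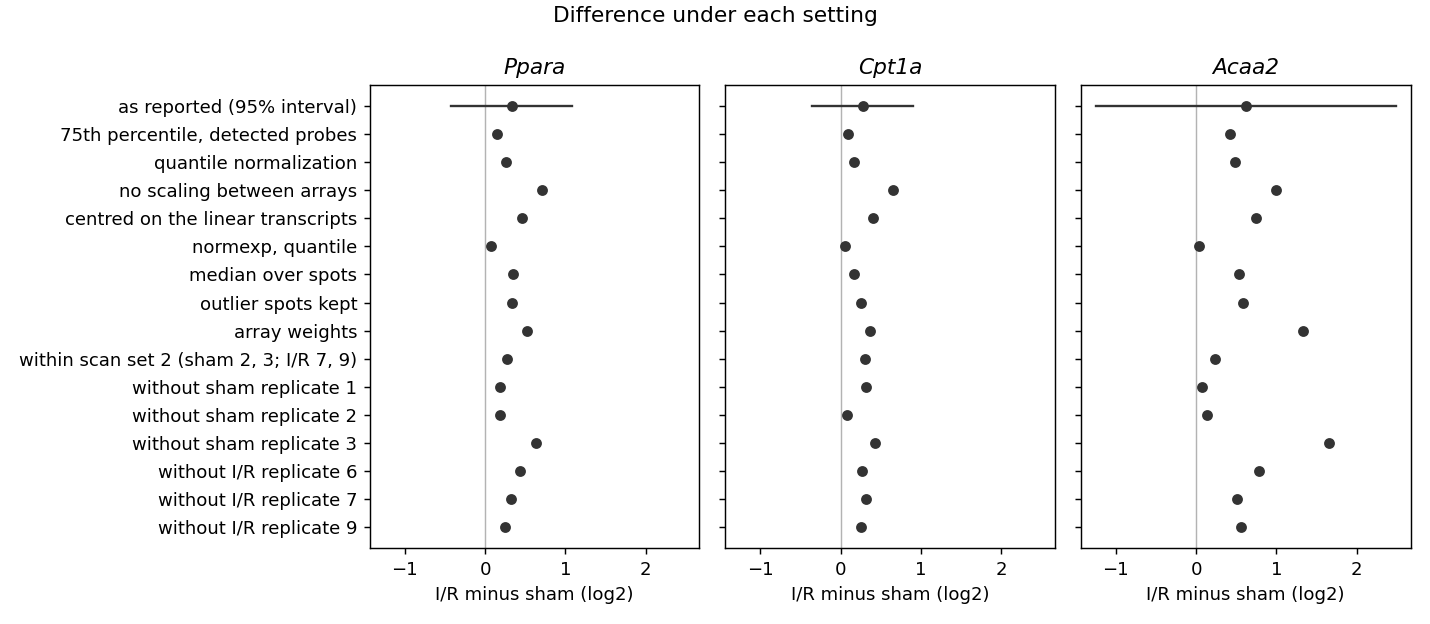
I/R minus sham on the log2 scale (horizontal axis) for Ppara, Cpt1a and Acaa2 as reported, with the 95% interval as a line, and as points under other scalings, background correction, spot summaries, array weights and with single arrays left out. All points lie above 0, from 0.05 to 0.71 for Ppara and Cpt1a together, and the Acaa2 points run from 0.04 with normexp to 1.33 with array weights and 1.65 without sham 3. Levels spread less with normexp, so its points are on a narrower scale than the others.

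Whether the 3 transcripts differed unequally was read from the log2 ratio of 2 probes on the same array. Subtracting a single value from all log2 levels of an array, such as its percentile, leaves this ratio unchanged. Other scalings can change it. The height of such a ratio depends on the probes, so only its change between arrays is read. Acaa2 over Ppara was -0.88, -0.77 and 1.36 for sham against 0.04, 0.39 and 0.13 for I/R. The I/R arrays again lay between sham 3 and the others. Its I/R minus sham difference was 0.28, that of Acaa2 over Cpt1a 0.34 and that of Ppara over Cpt1a 0.06. The exact two-sided permutation p-values were 0.9, 0.8 and 0.8, and 0.9 each after adjustment over the 3 pairs, where 3 arrays against 3 cannot go below 0.1. With SDs in sham of 1.26 and 1.55 for the ratios with Acaa2, an unequal change was not detectable, and both transcripts of the Acaa2 over Cpt1a ratio were below that background limit on sham 2.

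Likeness between transcripts was measured as the root mean square difference of their levels over the 6 arrays, each centred on its own mean, against the 30 other named linear transcripts that passed the filter. Ppara lay closest to Gpi1, a glycolytic isomerase, at 0.13, then to Cpt1a at 0.23 and to Carhsp1, a small RNA-binding protein, at 0.25. Cpt1a lay closest to Carhsp1 at 0.15, Gpi1 at 0.17 and Ppara at 0.23. The nearest to Acaa2 was Ppara, followed by Gpi1 and Carhsp1, but at 0.75, 0.86 and 0.89, several times as far. In the other direction Acaa2 was rank 27 of 30 from Ppara and 29 of 30 from Cpt1a, among the farthest by this distance. The distance is not scaled for spread, so a wide spread alone makes it large. The SD in sham was 1.79 for Acaa2, 0.53 for Ppara and 0.36 for Cpt1a. These ranks therefore do not show a different order of the arrays. For both Acaa2 and Ppara, sham 3 was the highest array, and the I/R arrays lay between it and the other sham arrays. Every distance with Cpt1a, Carhsp1 or Acaa2 includes sham 2, where these transcripts were not well above background. Gpi1 was at -0.90, -0.88 and -0.29 in sham and -0.50, -0.50 and -0.18 in I/R, again with sham 3 as the highest sham array. Carhsp1 was at -2.60, -3.19 and -2.37 in sham and -2.26, -2.14 and -2.18 in I/R. Neither passed the test between the groups (adjusted p = 0.650 and 0.513 in limma over the 50 linear transcripts). Pex11a, a peroxisome membrane protein whose gene PPAR alpha is known to activate, was outside the fixed list and was looked up after the other values were seen. It was at 0.51, 0.19 and -0.10 for sham against 0.49, 0.16 and 0.19 for I/R, so that sham 3 was its lowest array. Its difference was 0.08 (SE 0.29, adjusted p = 0.897 in limma over the 50 linear transcripts).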

How the data were processed

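The authors deposited 1 scanner file per array with the intensity of each spot. Per the file headers these were made with Agilent Feature Extraction 11.0.1.1 on a 1-colour array designed on mm9, with no scaling between arrays. The processed signal is not simply the raw signal minus the local background. For example, a Ppara spot on sham 1 had a raw signal of 76, a local background of 27 and a processed signal of 19.2. Feature Extraction and limma are the tools named in the submitters' processing notes. A table of log2 values deposited by the authors has 9821 probes, among them none of the 50 for linear transcripts, so it served for a count of calls alone. Intensities were turned to log2, the 75th percentile of the array's non-control spots was subtracted, outlier spots were left out and the spots of a probe were averaged. A probe was fitted when well above background on at least 3 arrays. I/R was compared with sham in limma 3.58.1 under R 4.3.3 (lmFit, eBayes, two-sided, Benjamini-Hochberg over 9527 circRNA and linear-transcript probes, no covariate). The script was tested on simulated data. Probes were named through RefSeq (GRCm38.p6), which matched 44 of 50. Named genes are the 3 transcripts, listed genes of their pathway with a probe and the 3 nearest linear transcripts of each. Outside that rule, Chgb is named from the marker list, and Pex11a, Mbp and Actb were named after their values were seen. The transcripts and lists were chosen with earlier results of these data known. Arrays have no read depth, and their number limits the precision.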

Additional observations from a re-analysis of the deposited data

How the results depend on the processing

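The differences of Ppara, Cpt1a and Acaa2 stayed above 0 in all 28, 29 and 28 alternatives run, from 0.08 to 0.71, 0.05 to 0.65 and 0.04 to 1.65, with adjusted p from 0.208 to 0.974, 0.255 to 0.974 and 0.0119 to 0.982 in limma. Not all of these could give a difference of their own. The background filters, limma's trend and robust options and the scan set as a block left the difference as reported. The fits of linear transcripts repeated the differences of the whole-array fits. The number of alternatives with the same sign is therefore not a number of separate results. Leaving out single arrays gave 0.18 to 0.64, 0.08 to 0.43 and 0.07 to 1.65. The lowest values came with normexp (offset 50), which was run on the median spot signal in place of the planned mean signal (0.08, 0.05 and 0.04). Levels spread less on that scale, so these values are not of like size with the others. With normexp and quantile normalization the Acaa2 levels ran from 6.33 to 7.67, against -2.42 to 0.73 as reported. Array weights, which were 6.03 for I/R 7 and 0.31 for sham 3, gave 0.52, 0.36 and 1.33. Acaa2 passed the threshold in the fit of linear transcripts without sham 3 (1.65), where its sham 2 level lay below that array's limit of detection. The count of calls was 0 as reported, 4 with array weights (all circRNA probes), 2 in the fit of linear transcripts without sham 3 (0 to 2 over the arrays left out; Acaa2 and the unnamed probe A_51_P425205), and 1 in that fit with scan set as a block (A_51_P425205). The cause was not tested. Ratios turned in sign: Acaa2 over Ppara was -0.021 with normexp and -0.11 to 1.01 without single arrays, Acaa2 over Cpt1a -0.25 to 1.22 and Ppara over Cpt1a -0.14 to 0.21. Normexp, the fits of linear transcripts without single arrays or with the scan set, the omission of 1 Cpt1a spot and sham 2 at its background limit (0.11 for Cpt1a and 0.39 for Acaa2) were chosen after seeing the data. The filter on all 6 arrays gave a value for Ppara alone, since the others fail it. No paired analysis was possible because the groups share no replicate numbers.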
